A study of Drosophila melanogaster with 2 samples.

Results

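The large subunit of the cytoplasmic ribosome is built on ribosomal RNA by proteins that the RpL genes encode, the acidic stalk proteins RpLP0, RpLP1 and RpLP2 among them. Every protein-coding gene of the Ensembl annotation whose symbol begins with RpL was taken, RpLP0-like aside, which gave 53 genes of 13945 protein-coding genes on the main chromosomes. Binding was measured for stc (shuttle craft), the fly relative of the human zinc finger protein NFX1, fused to enhanced green fluorescent protein (eGFP) and precipitated with an anti-GFP antibody. The material was whole embryos of 1 transgenic strain, stc-GFP, collected from 0 to 24 h, so that all embryonic stages and tissues were pooled. There was 1 group of 2 biological replicates and no other condition. In such material a strong peak in few cells and a weak one in many cells cannot be told apart, and control libraries were not analysed here, so a peak may hold background.

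Ribosomal proteins are needed in near equal amounts, and their genes are among the most strongly transcribed of a growing cell. In Drosophila most of them start transcription at a pyrimidine-rich initiator, the TCT motif, in place of the usual initiator and usually with no TATA box. Short 5′ untranslated regions that begin with a run of pyrimidines also mark their transcripts for control of translation by the TOR pathway in animals.

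Most RpL genes carried an stc peak at their promoter. A gene was called bound when the summit of a peak, its highest point, lay within 250 bp of an annotated transcription start site (TSS). In the conservative list, the peaks kept between the replicates by the authors, 35 of the 53 RpL genes were bound (66.0%), against 10.2% of all protein-coding genes. The list of replicate 1 alone held 36 of the 53 (67.9%), beside 8.18% of all protein-coding genes. Replicate 2 alone held 32 (60.4%), beside 10.8% of all protein-coding genes. In the series' larger thresholded list the count was again 35 (66.0%), where the share of all protein-coding genes was 13.4%. These counts describe 2 libraries and carry no test.

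The calls were largely shared by the conservative list and the replicates' own lists. Of the 53 genes, 31 were bound in all 3, 15 in none, and 38 in at least 1. RpL12, RpL29 and RpL39 were bound in the conservative list and in replicate 1 only, with conservative-list signals of 109.7, 86.6 and 114.4. RpL37-1 was bound in the conservative list alone, with a signal of 113.4. RpL5 and RpL26 were bound in replicate 1 only, with signals of 44.1 and 47.6 in its list, and RpL6 in replicate 2 only, with a signal of 45.4 in its list. Each of these 7 genes lay below the median signal of the bound RpL genes in every list that held it.

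**Figure D1:**
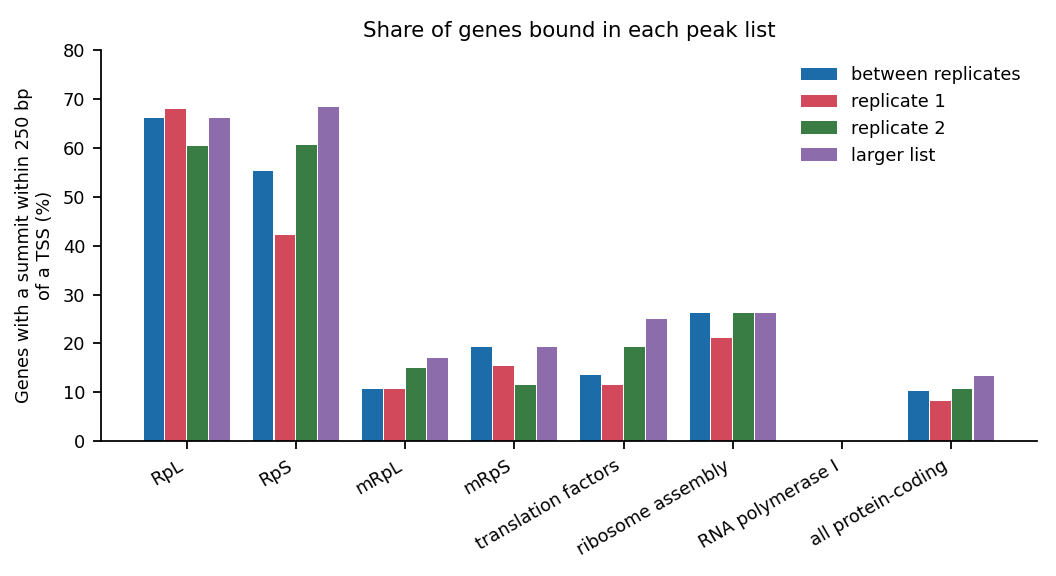
Share of genes with a peak summit within 250 bp of a TSS (vertical axis, percent) for the RpL genes, related gene lists and all protein-coding genes, in each of 4 peak lists (colours). The RpL bars stand at 60.4% to 67.9%, above those of the mitochondrial ribosomal (mRpL and mRpS), translation factor and ribosome assembly lists, and no RNA polymerase I gene was bound.

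Of the related gene lists, the small subunit came nearest to this share. Genes of the small cytoplasmic subunit (RpS) were bound at 21 of 38 (55.3%) in the conservative list. They stood at 16 of 38 (42.1%) in replicate 1, at 23 (60.5%) in replicate 2 and at 26 (68.4%) in the larger list, so that the order of RpL and RpS genes depended on the list. Genes of the large mitochondrial subunit (mRpL), whose products never enter the cytoplasmic ribosome, were bound at 5 of 47 (10.6%), close to the share of all protein-coding genes. Translation factor genes were bound at 7 of 52 (13.5%) and the 7 genes of RNA polymerase I subunits at 0. Of 19 ribosome assembly genes, 5 were bound (26.3%): eIF6, Ns2, NHP2, Nopp140 and RpLP0-like. The last is the assembly factor whose name resembles that of the stalk protein.

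By place in the ribosome, the calls were spread over most of its parts. The shares to set beside these counts are 66.0% of all RpL genes and 10.2% of all protein-coding genes. Each place held at most 8 genes, and differences between places were not tested. Of 8 genes for proteins that line or surround the exit tunnel of the growing peptide, 6 were bound: RpL4, RpL17, RpL19, RpL23A, RpL31 and RpL39, with RpL26 and RpL35 unbound. Near the peptidyl transferase centre, where peptide bonds form, RpL3 and RpL8 were bound and RpL10 was not. The stalk that recruits translation GTPases had RpLP0 and RpL12 bound, and RpLP1 and RpLP2, the small acidic proteins at its tip, unbound. The partners that carry the 5S ribosomal RNA into the subunit were split, with RpL11 bound and RpL5 unbound in the conservative list. Both genes for the L1 stalk, RpL10Aa and RpL10Ab, were unbound, and so was RpL40, which is made as a fusion to ubiquitin. The other 33 genes, to which none of these places was assigned, had 24 bound.

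The peaks at RpL genes were of middling height. The signal of a peak was taken as the authors deposited it, on a scale that the sources do not state, and is compared within 1 list only. At the 35 bound genes it ran from 86.6 to 401.9 with a median of 184.7, where the 1105 promoter peaks of protein-coding genes in the same list had a median of 148.4. In that list 24 of the 35 lay above this median and 8 above the upper quartile of 246.8. Counted per gene, the median in replicate 1 was 77.2 at bound RpL genes and 95.7 at other bound genes. In replicate 2 it was 98.9 and 81.1, so the order of RpL and other genes depended on the library. The ranks of the 35 among the 3831 peaks of the conservative list ran from 260 to 3146, and all 3831 had a median signal of 126.2.

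RpL32, known as rp49 and often used as a reference transcript, had the highest signal, 401.9 in the conservative list, with 173.6 in the list of replicate 1 and 206 in that of replicate 2. Its peak lay at chr3R:30046129-30046434 (dm6) and covered the TSS, with the summit upstream of the gene. RpL32 is head to head with CG7943. RpL34b had 340.0 in the conservative list, 162.8 in replicate 1 and 174.4 in replicate 2 (chr3R:9401327-9401491). RpL14 had 337.5, 138.0 and 196.5 in the same order (chr3L:8600873-8601063), and the TSS of Nelf-E was also near its summit. That gene encodes a subunit of the factor that pauses RNA polymerase II. RpL32, RpL34b and RpL14 were among the 5 highest RpL genes in each of the lists.

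RpL30 followed with 316.8 in the conservative list, 113.2 in replicate 1 and 203.3 in replicate 2. RpL23A, at the exit tunnel, had 310.0, 163.8 and 153.2 in these lists, and RpL7 had 301, 137.8 and 172.4. RpL41, which encodes a very short basic peptide, had 275, 99.4 and 177.9, and RpL24 had 261.2, 121.9 and 151.3. The order was thus not the same in the 2 libraries, since RpL23A was the second in replicate 1 and the seventh in replicate 2 among these 8 genes.

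RpL17 had a conservative-list signal of 245.4, RpL22 of 241 and RpL11 of 225.3. RpL34a and RpL19 each had 210.2, and RpL3, which shapes the peptidyl transferase centre, had 203.9. RpLP0, the base of the stalk, had 169.4 in the conservative list, 94.1 in replicate 1 and 78.2 in replicate 2 (chr3L:22075890-22076239). RpL12, which binds beside it, had 109.7 in the conservative list, 67.7 in replicate 1 and no thresholded peak in replicate 2. Across the 31 genes bound in all 3 lists the signals of the replicates had a Spearman's rho of 0.647, against 0.805 over the 832 other genes bound in all 3, a description over genes that share the 2 libraries.

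**Figure D2:**
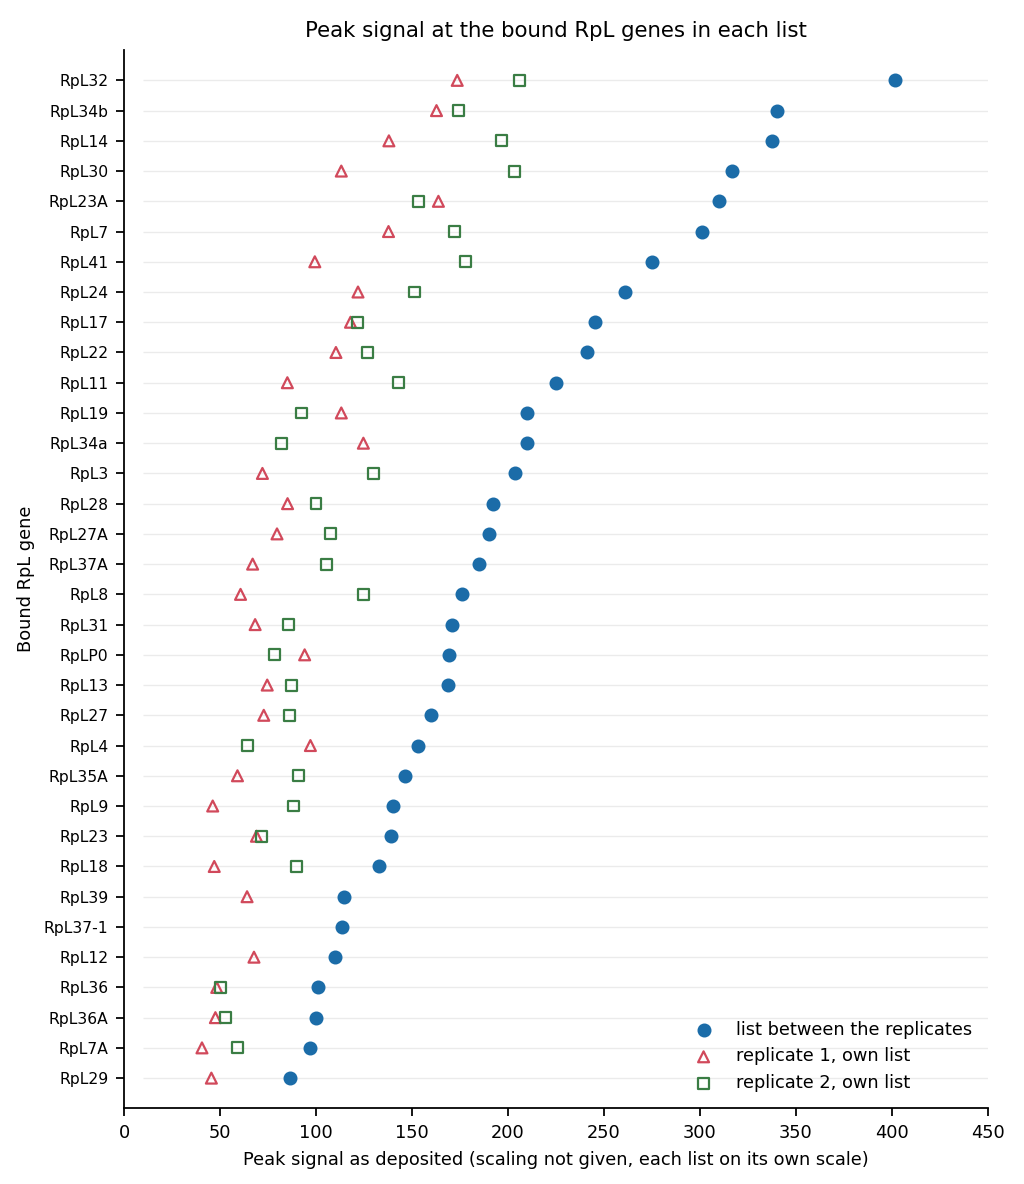
Signal of the peak (horizontal axis, the deposited value on each list's own scale) at 34 of the 35 bound RpL genes in the conservative list kept between the replicates (filled circles) and in the thresholded lists of replicate 1 (triangles) and replicate 2 (squares). A missing triangle or square means that the gene was not bound in that list, which was so at RpL12, RpL29, RpL37-1 and RpL39.

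Summits at RpL genes lay close to the TSS. Positions are given from the nearest TSS of the gene, negative upstream. At the 35 bound RpL genes the summit lay between -136 and 63 bp, with a median of -15 bp and quartiles of -47.5 and 11.5 bp. At the 1394 other bound protein-coding genes the median was -118 bp with quartiles of -164 and -50 bp. The bound RpS genes shared the place of the RpL genes, with a median of -10 bp: 33 of 35 RpL summits (94.3%) and 20 of 21 RpS summits (95.2%) lay within 100 bp of the TSS. The summit was within 50 bp of the TSS at 25 of 35 RpL genes (71.4%) and at 207 of 1394 other bound genes (14.9%). This held for both libraries, with RpL medians of -29 bp in replicate 1 and -22.5 bp in replicate 2. Other bound genes had medians of -129 and -101 bp in these 2 lists.

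**Figure D3:**
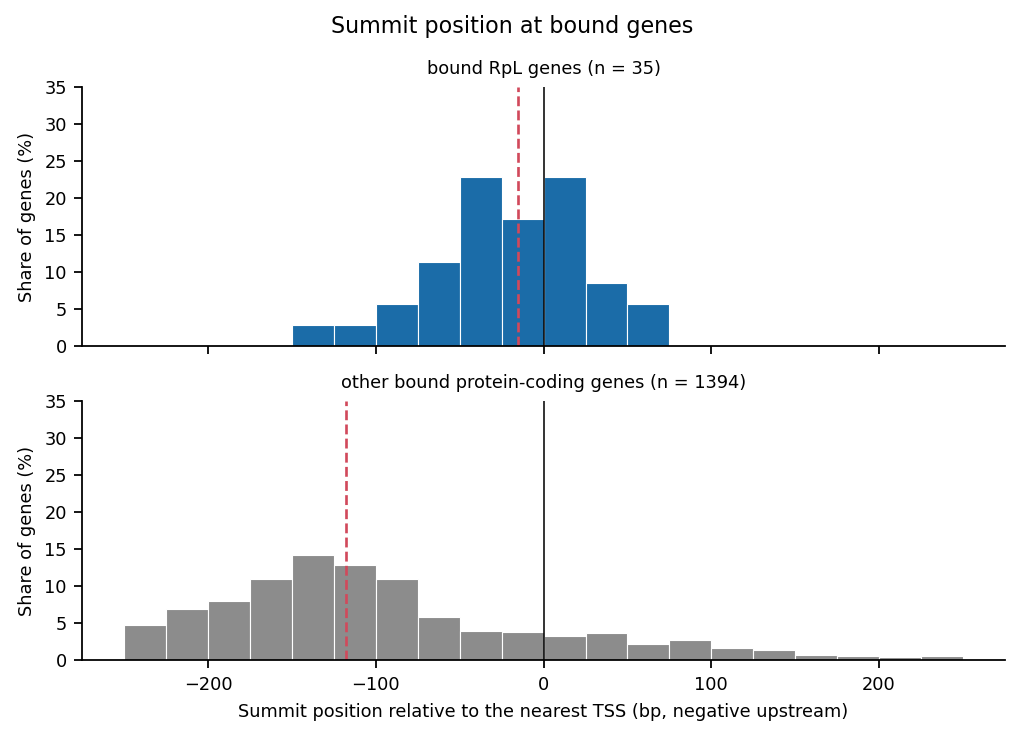
Summit position from the nearest TSS (horizontal axis, bp in bins of 25, negative upstream) as a share of genes (vertical axis, percent) for the 35 bound RpL genes (top) and the 1394 other bound protein-coding genes (bottom). Dashed lines mark the medians of -15 bp and -118 bp, and the solid line marks the TSS.

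Among the RpL genes the summit was upstream of the TSS at 22, downstream at 12 and on the TSS base itself at RpL11. This split depended on the library, since 32 of 36 summits (88.9%) were upstream in the list of replicate 1 and 22 of 32 (68.8%) in that of replicate 2. At other bound genes the upstream share was 82.6% in the conservative list, 89.1% in replicate 1 and 77.0% in replicate 2. A lower share in replicate 2 was thus not particular to RpL genes. By annotation, 18 summits lay upstream of the gene, 15 in a 5′ untranslated region (UTR) and 2 in an intron, at RpL3 and RpL35A. The farthest upstream were at RpL34b (-136 bp) and RpL32 (-120 bp), and the farthest downstream at RpL35A (63 bp) and RpL3 (59 bp). RpL7 had its summit at 35 bp in the conservative list, at 37 bp in replicate 1 and at 40 bp in replicate 2. RpL17 had -45, -46 and -49 bp in the same lists, so that at these genes the libraries placed the summit within a few bases. Over the 31 genes bound in all 3 lists the replicates' positions differed by a median of 18 bp and at most 93 bp.

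The medians of the 2 replicates at RpL genes thus lay closer to each other than to those of the other bound genes in the same lists. The positions were also split by head-to-head neighbours. A head-to-head neighbour is a gene on the opposite strand with a TSS at most 500 bp upstream. Without such a neighbour the median position was -3 bp at RpL genes and -114 bp at 618 other bound genes. With one it was -29 bp at 19 RpL genes and -119 bp at other bound genes.

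The bound RpL genes also had short first exons. At the TSS nearest to the summit the shortest first exon had a median of 43 bp at the bound RpL genes and 257.5 bp at the other bound genes. It was 100 bp or less at 32 of 35 RpL genes (91.4%) and at 221 of 1394 others (15.9%). At the TSS farthest 5′, the share was 85.7% at bound RpL genes, 44.4% at unbound RpL genes and 15.2% over all protein-coding genes. Whether exon length has a part in the summit position was not tested.

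Bound RpL genes had a head-to-head neighbour about as often as other bound genes. This was so at 19 of 35 bound RpL genes (54.3%) and 4 of 18 unbound RpL genes (22.2%), against 776 of 1394 other bound genes (55.7%) and 4319 of all 13945 protein-coding genes. At 12 bound RpL genes the same summit also lay within 250 bp of a TSS of another gene, in 10 cases a protein-coding one. Which of the paired promoters a shared peak belongs to cannot be told from these lists.

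The neighbours included genes of promoter factors. RpL13 shared its peak with Dref, the factor that binds the DNA replication-related element (DRE), whose TSS was 105 bp from the summit. RpL14 shared its peak with Nelf-E at 96 bp, and RpL29 with Sgf29, a subunit of the SAGA histone acetyltransferase, at 95 bp. RpL19 shared with CG3776 at 58 bp, RpL7 with Ripalpha at 65 bp and RpL41 with the sodium channel gene NaCP60E at 134 bp. RpL34b shared with CG8132 at 133 bp, RpL34a with the tRNA methyltransferase gene Trmt61 at 167 bp and RpL32 with CG7943 at 189 bp. The summits at RpL22 and RpL37A lay 104 and 167 bp from the start of a non-coding transcript. When each summit was given only to the protein-coding gene of nearest TSS, RpL19 and RpL34b were no longer bound and the other 33 were.

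Some paralogue pairs were split. In 4 of 6 pairs exactly 1 gene was bound in the conservative list, where 35 of all 53 RpL genes were bound (66.0%). The count was 3 in each replicate's own list, where RpL37-1 was not bound. How often other pairs of genes were split was not counted, so these counts have no background share beside them. RpL7 was bound (301) and RpL7-like, related to a yeast assembly factor, was not. RpL22 was bound (241) and RpL22-like, known for its expression in the germ line, was not. RpL24 was bound (261.2) and RpL24-like, related to another yeast assembly factor, was not. RpL37-1 was bound (113.4) and RpL37-2 was not, so in these pairs the gene without the suffix or with the first number had the peak.

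The remaining pairs did not differ in their call. RpL34a (210.2, position -62 bp) and RpL34b (340.0, position -136 bp) were both bound, and RpL10Aa and RpL10Ab were both unbound. The unbound paralogues differed in what the unfiltered ranked lists held. RpL7-like had a ranked peak of signal 11.4 with an irreproducible discovery rate (IDR) of 0.457, and RpL24-like one of 51.2 with an IDR of 0.263, where the thresholded lists kept peaks at 0.01 or less. RpL22-like, RpL37-2 and RpL10Aa had no ranked peak within 250 bp of a TSS in any list. RpL10Aa and RpL37-2 have a single exon in the annotation, as does RpLP2, and none of these 3 was bound. The sources do not say how reads that match both copies of a pair were placed, so the split between copies is uncertain where they are alike in sequence.

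Of the 18 unbound RpL genes, 10 had a peak at the promoter in the series' ranked list that did not reach the conservative list. Over all unbound protein-coding genes the share with a ranked peak was 53.7%. RpLP2 had 75.5 at an IDR of 0.0434, RpL35 had 72.2 at 0.0527 and RpL10Ab had 84.6 at 0.0307, all above the threshold of 0.01. RpL6 (71.7 at 0.646), RpL26 (55.5 at 0.670), RpLP1 (49.4 at 0.587) and RpL40 (34.8 at 0.733) were further from it. RpL13A was an exception, since its ranked peak of 138.6 passed the threshold and was still not in a thresholded list.

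A separate group of unbound genes lay where the ranked list held few or no peaks at all. Around a protein-coding gene a median of 114 ranked summits lay within 50 kb, and 57 to 153 did around the bound RpL genes. Within 50 kb of RpL10, RpL15, RpL21 and RpL38 there was no ranked summit. RpL5 had 3. Of all protein-coding genes, 223 (1.60%) had no ranked summit within 50 kb. None of these could be bound, since every peak of the conservative list is also a ranked peak.

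These neighbourhoods differed between the libraries. The ranked list of replicate 1 held 32 summits within 50 kb of RpL5, 20 around RpL10, 15 around RpL15, 10 around RpL21 and 32 around RpL38, where the median over protein-coding genes was 94. That of replicate 2 held 2 around RpL5, 1 around RpL15 and 0 around RpL10, RpL21 and RpL38, where the median was 100. For these genes a missing peak is therefore not a measurement of the promoter alone. Without the 4 genes that had no ranked summit nearby, 35 of 49 RpL genes were bound (71.4%), beside 10.4% of the 13722 protein-coding genes with one. Leaving out genes that could not be bound can only raise these shares. Depth and mappability were not tested, since the files give no reads.

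The initiator was searched next, since it sits where the summits lay. TCT was read as CTTT after any base (NCTTT) on the strand of the gene, with its C within 5 bp of an annotated TSS. It was present at 24 of 35 bound RpL genes (68.6%) and 9 of 18 unbound ones, against 156 of 1394 other bound genes (11.2%) and 8.07% of all protein-coding genes. RpS genes had it at 25 of 38 (65.8%). With the C within 20 bp of a TSS it was present at 35 of 35 bound RpL genes, at 16 of 18 unbound ones, at 32 of 38 RpS genes (84.2%) and at 26.8% of all protein-coding genes. RpL10Aa and RpL24-like were the 2 RpL genes without it. Genes with more TSSs have more chances of a match, and among genes with 1 TSS the counts were 14 of 28 RpL genes and 5.37% of all. The motif was thus found at bound and at unbound RpL genes, with a higher share in the bound ones, a difference that was not tested.

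The windows below show 15 bases before to 15 bases from the TSS on, 5′ to 3′ on the gene's strand in Release 6 of the genome (dm6), with the NCTTT match nearest to the TSS in capitals. Where a gene has several TSSs, the one with the nearest match was shown, which at RpL7 and RpL24 is not the TSS from which the summit position was counted. The first 9 genes were bound, the next 6 unbound with the motif, and the last 2 unbound without it. They were chosen to set bound and unbound genes side by side.
RpL32, chr3R:30046147-30046176, minus strand: tcacaccaccaGCTTTttcttttcgcttct
RpL14, chr3L:8600991-8601020, plus strand: ctgtcaaaaaagtTCTTTccttctctttct
RpL30, chr2L:19009223-19009252, minus strand: atttccgcctgttcttccTCTTTcttttgc
RpL7, chr2L:10201085-10201114, plus strand: gtatagcacgtttccggTCTTTctttccct
RpL24, chr2L:13395078-13395107, minus strand: gtttccacttccgtttTCTTTtcttttcgt
RpL8, chr3L:2587441-2587470, plus strand: aggatgtcttccTCTTTtcttttcttttcg
RpLP0, chr3L:22076077-22076106, plus strand: tgccgccgccaacttcacTCTTTccgttct
RpL4, chr3R:27922806-27922835, plus strand: agccatttccggcagctcTCTTTctttctt
RpL9, chr2L:11004139-11004168, minus strand: gccacattaaatttccctTCTTTtcttttc
RpL40, chr2L:4227684-4227713, plus strand: tcggcggcggccacactcTCTTTtcccttt
RpL5, chr2L:22536636-22536665, minus strand: aaggccgcactattttcctTCTTTttgcta
RpL21, chr2L:22247819-22247848, minus strand: gctattcaagtagccaTCTTTctttctttt
RpL35, chrX:5672719-5672748, plus strand: tctgcttcttctTCTTTccttttcttttcg
RpLP1, chr2L:419937-419966, plus strand: cacactgcatatcaactgcTCTTTccggtt
RpL7-like, chr2L:12056333-12056362, plus strand: gctccgcgcccacctctatCCTTTttagtt
RpL10Aa, chr3R:15037351-15037380, plus strand: tacaatacatttcaaattttgtgcttgtag
RpL24-like, chr3R:11431568-11431597, minus strand: ctgctgactgccgatacattttcatatttc

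The C of the capitals fell within 5 bp of the TSS in the first 15 windows. They are followed by further pyrimidines in bound genes such as RpL14 and RpL9 and in unbound ones such as RpL40 and RpL35. The window of RpL7-like, the unbound paralogue of RpL7, holds the motif too. RpL10Aa and RpL24-like, which lack it, are a single-exon copy and a gene for an assembly-factor relative.

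A word of 6 bases, TTCCGG, was common in bound RpL promoters. It was picked after the summit windows had been seen, and its counts are a description. From 250 bp before to 50 bp after the TSS farthest 5′, on either strand, it was in 16 of 35 bound RpL genes (45.7%) and 5 of 18 unbound ones (27.8%), against 7.25% of other bound genes and 6.78% of all protein-coding genes. Within 50 bp of the summit it was in 12 of 35 peaks at RpL genes (34.3%) and 32 of 1070 other promoter peaks (2.99%). Summits at RpL genes lay nearer to the TSS, so these windows covered different parts of the promoter. RpS promoters held the word in 11 of 38 (28.9%).

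Of the bound RpL genes, 20 held the word from 150 bp before to 100 bp after the TSS nearest to the summit, in 23 copies. Counted from the TSS nearest to the summit, its first base lay 15 to 31 bp downstream at 15 of 35 bound RpL genes (42.9%) and at 10 of 1394 other bound genes (0.717%). From any TSS, the word was in this band at 16 of 35 bound RpL genes (45.7%) and 2 of 18 unbound ones (11.1%). Shares were 13.2% at RpS genes (5 of 38) and 0.853% over all protein-coding genes. RpL5 and RpL35 were the 2 unbound RpL genes. The band itself was drawn from these positions. In 14 of the 15 genes an annotated first exon from that TSS ended after the word, and in 8 of them it ended within 15 bp after it.

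Of these bound genes, 10 are printed from 10 to 39 bp after the TSS nearest to the summit, 5′ to 3′ on the gene's strand (dm6), with the word in capitals.
RpL32, chr3R:30046122-30046151, minus strand: cttctggtTTCCGGcaaggtatgtgcgtga
RpL14, chr3L:8601016-8601045, plus strand: tttctTTCCGGttagcgtcatggtaagaat
RpL8, chr3L:2587466-2587495, plus strand: tttcgccccgtTTCCGGagtggtcgtattg
RpL9, chr2L:11004114-11004143, minus strand: ttttccccgtTTCCGGtgagtagtgtgttc
RpL18, chr3L:7241312-7241341, minus strand: tttggctttcgtTTCCGGcgaggtacgtgc
RpL27, chr3R:25685012-25685041, minus strand: cttttcgcccgtTTCCGGtgagtggtgtgt
RpL34a, chr3R:26059228-26059257, minus strand: tccttcttttgatTTCCGGagaggtttgtg
RpL35A, chr3R:5467062-5467091, minus strand: ttttcgctttcgtTTCCGGcgaagtaagta
RpL7A, chrX:6533217-6533246, minus strand: ttcgttccacgtTTCCGGtgagtgcatgtg
RpL37-1, chrX:15139328-15139357, minus strand: ttctttttgctgcgcTTCCGGagaagtcgt

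In RpL32, RpL18, RpL34a and RpL35A the nearest annotated end of a first exon lay 4 bases after the word, in RpL27 6 bases and in RpL14 11 bases after it. Other annotated transcripts run on past this end in some of these genes. In RpL8 the nearest end lay 31 bases after, in RpL37-1 85, in RpL7A 105 and in RpL9 122 bases after. The word thus sat in the 5′ end of the transcript, and within 11 bases of an annotated end of a first exon in 6 of the 10 genes shown.

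Known promoter elements were searched from 250 bp before to 50 bp after the TSS farthest 5′, on both strands. The DRE, read as TATCGATA, was in 10 of 35 bound RpL genes (28.6%) and 5 of 18 unbound ones (27.8%), against 12.9% of other bound genes and 9.36% of all protein-coding genes. The E-box CACGTG, which Myc and Max bind, was in 7 of 53 RpL genes (13.2%) and 4.20% of all. The core GGTCACACT of the element called motif 1 was in 6 of 53 (11.3%) and 6.05% of all. The motif 6 core, read as GTATATTT or GTATTTTT, was in 12 of 53 (22.6%) and 12.4% of all, and the motif 7 core, read as CATCNCTA or CAGCNCTA, in 7 of 53 (13.2%) and 9.75% of all. GAGAG, the element that the GAGA factor binds, was in 11 of 53 (20.8%) and 29.7% of all. CGATA, which the DRE contains, was in 38 of 53 (71.7%) and 47.4% of all. RpS genes had the DRE in 34.2%, the motif 6 core in 28.95%, CGATA in 73.7% and the motif 7 core in 13.2%. They had the motif 1 core in 7.9%, GAGAG in 10.5% and the E-box in 0 of 38. Raised shares of the DRE, the motif 6 core and CGATA were thus not particular to RpL genes.

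The TATA box, read as TATAAA, depended on the window. It was in 24 of 53 RpL genes (45.3%) and 45.8% of all protein-coding genes over the whole window. From 100 bp before to 50 bp after the TSS it was in 5 of 53 (9.43%) and 23.9% of all. Within 50 bp of the summit it was in 2 of 35 peaks at RpL genes (5.71%) and 24.7% of the other promoter peaks, while the DRE was in 5 of 35 (14.3%) and 1.68%. Summits had a median position of -15 bp at RpL genes and -118 bp at other bound genes. These windows thus covered different parts of the promoter in the 2 sets. None of these elements was in all bound promoters. Bound and unbound RpL genes had 22.9% and 22.2% for motif 6, 14.3% and 5.56% for motif 1, 77.1% and 61.1% for CGATA, and 37.1% and 61.1% for the TATA box over the whole window. None of these differences was tested.

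**Figure D4:**
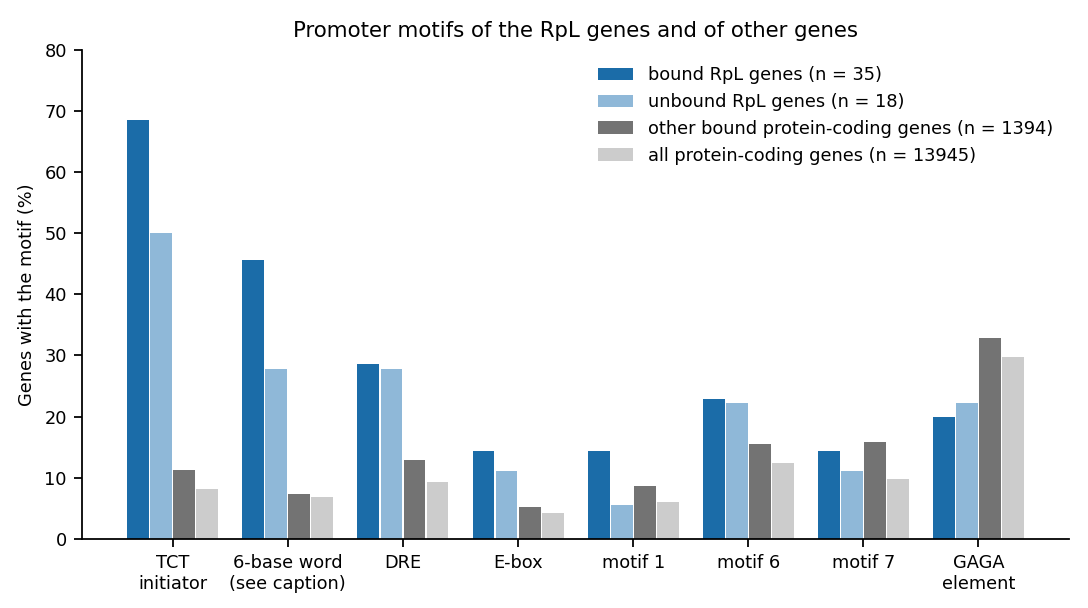
Share of genes with a motif (vertical axis, percent) for bound RpL genes, unbound RpL genes, other bound protein-coding genes and all protein-coding genes. The TCT initiator was counted within 5 bp of a TSS and the others from 250 bp before to 50 bp after the TSS farthest 5′, and the 6-base word is TTCCGG. The word stood at 45.7% in bound RpL genes and 27.8% in unbound ones, and the DRE at 28.6% and 27.8%.

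The DRE windows below hold 11 bases on each side of the element, which is in capitals, 5′ to 3′ on the gene's strand (dm6). The first 4 genes were bound and the last 3 were unbound, and they show that the same 8 bases occurred in both.
RpL27, chr3R:25685073-25685102, minus strand: ttgccactaagTATCGATAaaaagacgacg
RpL34a, chr3R:26059292-26059321, minus strand: tgttttgaaatTATCGATAgcaattaatat
RpL28, chr3L:3223034-3223063, minus strand: tacgaaatgctTATCGATAgttgccctgcc
RpL37-1, chrX:15139406-15139435, minus strand: cggacaaaaacTATCGATActcgcgcaacg
RpL10Ab, chr3L:11822763-11822792, plus strand: ctattaatgaaTATCGATAtatattcgcac
RpL24-like, chr3R:11431604-11431633, minus strand: ttagccagtgtTATCGATAagcagtgactg
RpL7-like, chr2L:12056300-12056329, plus strand: cacacatcactTATCGATAgcaaagcactt

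From the TSS farthest 5′ the element began at -40 bp in RpL27, at -43 bp in RpL34a, at -92 bp in RpL28 and at -57 bp in RpL37-1. In the unbound genes it began at -77 bp in RpL10Ab, at -40 bp in RpL24-like and at -15 bp in RpL7-like. Genes for factors that have been proposed to act at ribosomal protein promoters were themselves bound in 4 of 9 cases counted, namely Dref, BEAF-32, Max and Trl. The Dref peak was the one shared with RpL13. Mnt was meant for the same list and missed that count through the spelling of its symbol. It was bound too, with a signal of 179.4 at -244 bp.

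By chromosome, bound genes made up 8 of 13 on 2L, 9 of 13 on 2R, 6 of 10 on 3L, 7 of 11 on 3R and 5 of 6 on X. The share of all protein-coding genes bound on each chromosome was not counted. No difference between chromosomes is read from these small counts. Of the 53 genes, 16 held small nucleolar RNA genes within their introns or exons, 33 in all. Of these 16, 12 were bound, beside 35 of all 53 RpL genes. The bound share of other genes that hold such RNAs was not counted. These RNAs guide modification of ribosomal RNA, and RpL28, with 5 of them, had a signal of 192.5 at -29 bp. The number of annotated TSSs differed with the calls, with a mean of 1.86 at bound RpL genes and 1.44 at unbound ones, against 1.83 at other bound genes and 1.41 over all protein-coding genes. A gene with more TSSs offers a wider target to the 250 bp rule.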

How the data were processed

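The deposited files are peak lists of dm6, per the labels. Which aligner and peak caller made them is not stated in those sources. Chromatin was sheared by sonication to 200 to 800 bp, per the labels. The signal of a peak is the authors' value as deposited, and the ranked lists carry the deposited −log10 of the IDR, the rate at which a peak's rank is expected not to be reproduced between 2 lists. All 3831 peaks of the conservative list, the main one, are ranked peaks with an IDR of 0.01 or less. The replicates' thresholded lists held 2782 and 3806 peaks. Read depth is unknown, so no interval could be given.

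Genes and TSSs came from Ensembl BDGP6.54, release 115. Bases were read from the RefSeq copy of Release 6, which is the same assembly as dm6. For each gene the peak of highest signal with a summit within 250 bp of a TSS was taken (Python 3.11.15, pandas 2.3.3), after the assignment was tested on simulated summits. Positions count from 1. The members, lists and motifs were chosen with earlier results of these data known. The genes given with values are the 15 bound ones of highest signal, paralogues, stalk genes, genes whose call differs between lists, those that share a peak, and the unbound ones with a ranked peak. Others are named where a count is small, and 1 bound gene is counted but not reported by name here. No test across genes was made, since the genes share 2 libraries. Alternatives were the replicates' own lists, a stricter IDR of 0.001, overlap with both lists, windows of 100 and 500 bp, other TSS choices and nearest-gene assignment.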

Additional observations from a re-analysis of the deposited data

Results flagged for a closer look

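RpL13A had a peak at its promoter in data that the calls do not use. In the series' ranked list the peak had a signal of 138.6, a summit at -34 bp and an IDR of 2.81e-04, under the threshold of 0.01. The IDR of the peak at the same promoter was 2.36e-04 in the ranked list of replicate 1 and 5.60e-04 in that of replicate 2. None of the thresholded lists held it. Of 3926 ranked peaks on the main chromosomes at an IDR of 0.01 or less, 95 were not in the conservative list, and this was the only one of them within 50 kb of RpL13A. No control libraries were analysed here to set it against.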

How the results depend on the processing

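The number of bound RpL genes stayed within 1.5 times of 35 under every alternative run: 29 at an IDR of 0.001 or less, 31 with overlap in both replicates' lists or with the TSS inside the peak, 33 within 100 bp, and 32 to 36 in the lists of 1 replicate each. The annotation of RefSeq gave the same 35. Paralogue pairs with exactly 1 gene bound numbered 4 as reported. They numbered 3 at the stricter IDR, with overlap in both lists and in each replicate's own list. Within 100 bp and with nearest-gene assignment they numbered 5. RpL12, RpL29 and RpL37-1 were lost both at the stricter IDR and without overlap in both lists. Ranked peaks at an IDR of 0.01 or less, an alternative chosen after seeing the data, added RpL13A. The count over all protein-coding genes moved more: it was 893 at the stricter IDR, 885 with overlap in both lists, 588 within 100 bp and 889 with the TSS inside the peak, against 1429 as reported. The median summit position was -27 bp at the stricter IDR, -7 bp with the TSS farthest 5′ only, and -29 to -22.5 bp in the lists of 1 replicate each. The median signal was 203.9 at the stricter IDR, and 77.2 to 98.9 in the replicates' own lists, whose scale may differ. Promoters with at least 1 of DRE, motif 1, E-box, motif 6 and motif 7 numbered 30 of 53, and 15 of 35 peaks held one within 50 bp of the summit. These pooled counts were not made for other genes or peaks, so they have no background share beside them. The cause of these shifts was not tested, apart from the fewer peaks that a stricter rule leaves. No paired analysis was possible because there was 1 group. Each call rests on 2 libraries of unknown depth, so that an unbound gene is one with no peak kept at this depth.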
